A study of Caenorhabditis elegans with 83 samples.

Results

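HDA-1 binding sites were compared between adult Caenorhabditis elegans that have a germline and adults that do not, all fed the standard Escherichia coli strain OP50. The members were the HDA-1 peaks called over antibody background in wild type worms (8332 peaks) and in glp-1(e2141) mutants (12112 peaks), 20444 of the 201446 peaks in the 22 peak lists of the series. A peak was counted once per interval of chromosome, start and end, and it was matched to the other list when the intervals shared at least 1 bp. Binding was mapped by CUT&RUN, a method that releases the DNA beside an antibody-bound protein with a tethered nuclease, on whole hermaphrodites at day 1 of adulthood, after about 48 h at 25°C. Both strains carried the knock-in syb5185[hda-1::gfp::ha] at the 3′ end of the endogenous hda-1 gene, in strain IU723 with no other mutation and in strain IU726 together with glp-1(e2141), a temperature-sensitive allele that leaves adults without germ cells at this temperature. The background came from worms without the tag, N2 for wild type and glp-1(e2141) for the mutant, profiled with the same antibody against HA. Each HDA-1 group held 2 biological replicates and each background 2. The authors merged the replicates of a group before they called peaks, so no list has a replicate error and no difference between the lists could be tested across replicates. The intervals given with shares are exact Clopper-Pearson 95% intervals and cover counting error only. The methods state that stocks with glp-1(e2141) were maintained at a lower temperature than the other strains. The lists mix the chromatin of every cell type of a worm, and the strains are 1 knock-in line each. Germline, strain, maintenance temperature and library cannot be told apart between these lists. A site bound in fewer cells and a site bound less in each cell cannot be told apart either.

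The class I histone deacetylase HDA-1 is the worm counterpart of mammalian HDAC1 and HDAC2. It removes acetyl groups from histone tails and works as a subunit of corepressor complexes such as NuRD, with the LET-418 or CHD-3 remodeller and LIN-40, the MEP-1-containing MEC complex and the SIN3 complex. The enzyme is found in somatic and germ cell nuclei, and it is essential for embryonic development. The adult gonad holds a large share of all nuclei of a hermaphrodite. Worms that lack germ cells therefore give a profile of somatic nuclei alone, whereas wild-type worms give both.

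The sequences under 6 peaks are shown first because the classes differed in the DNA under their summits. Each run holds 201 bases of the WBcel235 + strand, 100 on either side of the summit, and capitals mark, on either strand, copies of the repeated word AAGGATC, of the GATA-factor core TGATAA and of the purine run GAGAGAGA. The first pair consists of wild-type-only peaks, the second of glp-1(e2141)-only peaks and the third of shared peaks.
Wild-type-only peak with the second highest −log10 q, chrIV:10943602-10943802: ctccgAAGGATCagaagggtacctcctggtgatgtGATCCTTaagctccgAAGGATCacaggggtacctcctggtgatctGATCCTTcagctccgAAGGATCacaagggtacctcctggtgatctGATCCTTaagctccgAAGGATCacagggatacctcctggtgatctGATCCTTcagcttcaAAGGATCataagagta
Wild-type-only peak with the fourth highest −log10 q, chrIV:3366832-3367032: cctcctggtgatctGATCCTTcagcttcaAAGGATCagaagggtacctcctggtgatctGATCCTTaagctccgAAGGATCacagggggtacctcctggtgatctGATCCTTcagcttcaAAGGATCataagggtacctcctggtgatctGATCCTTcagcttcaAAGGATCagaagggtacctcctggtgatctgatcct
glp-1(e2141)-only peak with the highest −log10 q, chrX:5651760-5651960: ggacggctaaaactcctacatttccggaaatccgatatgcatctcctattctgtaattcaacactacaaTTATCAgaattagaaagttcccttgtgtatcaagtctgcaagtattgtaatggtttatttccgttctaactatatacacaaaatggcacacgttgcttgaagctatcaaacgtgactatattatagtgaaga
glp-1(e2141)-only peak with the third highest −log10 q, chrIII:3952164-3952364: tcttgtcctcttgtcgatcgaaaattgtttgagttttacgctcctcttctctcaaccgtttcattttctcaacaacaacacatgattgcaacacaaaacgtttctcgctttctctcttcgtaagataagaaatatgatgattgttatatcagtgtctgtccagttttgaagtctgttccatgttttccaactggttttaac
Shared peak of the wild-type list with the highest fold, chrX:4222893-4223093: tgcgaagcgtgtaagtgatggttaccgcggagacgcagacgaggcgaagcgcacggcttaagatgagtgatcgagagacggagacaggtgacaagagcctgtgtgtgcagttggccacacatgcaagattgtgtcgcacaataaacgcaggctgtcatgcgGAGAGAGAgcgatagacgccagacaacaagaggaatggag
Shared peak at hlh-11, chrIII:9619287-9619487: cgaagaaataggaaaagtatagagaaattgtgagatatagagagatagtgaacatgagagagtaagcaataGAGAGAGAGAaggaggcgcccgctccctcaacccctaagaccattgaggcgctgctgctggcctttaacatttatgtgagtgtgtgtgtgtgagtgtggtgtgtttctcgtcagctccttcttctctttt

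The wild-type-only pair is built from repeated copies of AAGGATC in both orientations, with 9 and 8 copies in the windows shown. The sequence between the copies is nearly the same from copy to copy. The glp-1(e2141)-only and shared sequences hold no AAGGATC. The glp-1(e2141)-only peak on the X chromosome has 1 TGATAA, the core that GATA factors such as the intestinal regulator ELT-2 recognise. Both shared sequences shown have a GAGAGAGA run. The shared peak at bet-2, with a fold of 19.4 and not shown, has none, and the run was found at 10.5% of shared wild-type summits.

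Most wild-type sites were also found without a germline, whereas many sites of the mutant list had no wild-type counterpart. Of the 8332 wild-type peaks, 7823 overlapped a glp-1(e2141) peak and 509 did not, a share of 6.11% (95% interval 5.60 to 6.64%). Of the 12112 glp-1(e2141) peaks, 4893 had no wild-type peak, a share of 40.4% (39.5 to 41.3%). Merging the lists gave 12535 regions, of which 7133 (56.9%) held a peak of both. The mutant peaks covered 7.51 Mb, or 7.49% of the 6 chromosomes, against 4.25 Mb and 4.24% in wild type, with a median width of 474 against 405 bp. Depth differed between the lists. Wild type had 43.2 M merged tags for HDA-1 and 48.9 M for its background, the mutant 66.5 M and 35.9 M, and the tool scaled the larger library of each pair down to the smaller one. With the same number of strongest peaks taken from each list, the share without a match became 13.9% for wild type and 21.5% for glp-1(e2141), so both shares depend on the lengths of the lists. The part of depth in the number of peaks was not tested.

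Unmatched peaks were for the most part weak peaks, with 1 exception. The strength of a peak is given here as its fold enrichment, the pileup of fragments at the summit over the local background, and as the −log10 q of that enrichment. The 4893 glp-1(e2141)-only peaks had a median fold of 1.79 and none exceeded 4.0, while the 7219 glp-1(e2141) peaks with a wild-type match had a median of 2.96. In quintiles of the mutant list ordered by −log10 q, the share without a match fell from 85.2% in the weakest quintile through 69.1%, 39.6% and 7.89% to 0.206% in the strongest, where 5 of 2423 peaks were unmatched. The wild-type quintiles went from 14.5% through 7.68%, 3.6% and 2.16% to 2.58%, so that the strongest quintile held 43 unmatched peaks and the one before it 36. Of those 43 peaks, 5 lay in sequence that is at least 90% unique, by the share of 31-base words found once in the genome. The exception is thus a set of strong wild-type-only peaks in repeated DNA.

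**Figure D1:**
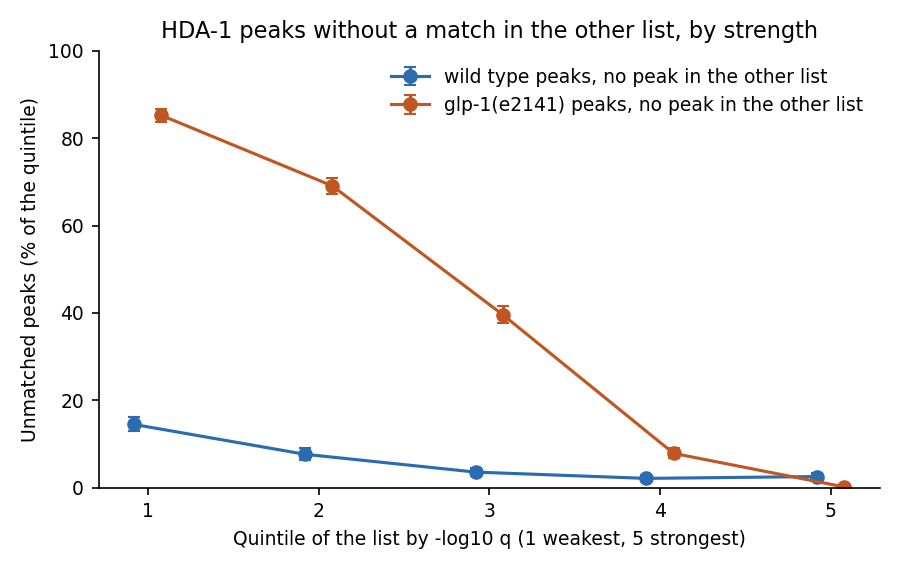
The share of peaks with no peak in the other list (y axis, % of the quintile) is plotted for quintiles of each list ordered by −log10 q (x axis, 1 weakest to 5 strongest), for wild type in blue and glp-1(e2141) in orange. Error bars are exact 95% intervals of the share, and the mutant points fall from 85.2% to 0.206% while the wild-type points stay between 2.16% and 14.5%.

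The lowest members sat at the threshold of q = 0.01 that the authors set. The weakest wild-type-only and wild-type shared peaks both had a fold of 1.35 and a −log10 q of 2.06, and the weakest glp-1(e2141)-only peak had 1.34 and 2.00. Absence from a list therefore says that no peak passed this threshold, not that HDA-1 was absent.

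The strongest wild-type-only peaks lay on arrays of the AAGGATC word shown above. Tracts were defined, after the data were seen, as 8 or more copies of AAGGATC on either strand with at most 150 bp between neighbours, and the genome held 42 of them, 18.4 kb in all, with 8 to 35 copies each. The median distance between copies of 1 orientation was 45 bp. The wild-type list had a peak on 40 of the 42 tracts (95.2%, 83.8 to 99.4%) and the glp-1(e2141) list on 1 (2.38%, 0.0603 to 12.6%). Fold at the wild-type peaks ranged from 1.99 to 13.2 with a median of 6.27, against 2.09 for the whole wild-type list. The single tract with a mutant peak, in an intron of Y42A5A.5 at chrV:11108120-11109068, had a fold of 12.6 in wild type and 1.53 in the mutant. Of the 20 wild-type-only peaks with the highest −log10 q, 17 lay on a tract. With a minimum of 5 copies in place of 8, the wild-type list had a peak on 51 of 63 tracts and the mutant list on 1, and with 12 copies on 29 and 1 of 31.

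The same arrays were bound in HDA-1 libraries that the classes did not use. Worms of strain IU723 were also grown on bacteria with the empty RNAi vector L4440 or with glp-1 RNAi, which removes the germline without the mutation, and HDA-1 was then called over histone H3 in place of antibody background. The L4440 list had a peak on 40 of the 42 tracts and the glp-1 RNAi list on 14 (33.3%, 19.6 to 49.5%). At the 14 tracts with a peak in both, fold was lower after glp-1 RNAi at 14 of 14, with a median of 1.90 against 7.03. In HDA-1 lists of worms mutant for set-26 or for hcf-1, peaks lay on 41 and 39 tracts with L4440 and on 36 and 36 with glp-1 RNAi, so the count after glp-1 RNAi was not as low in the mutant strains. The median fold on the tracts was still lower after glp-1 RNAi in both, at 3.30 against 14.1 in the set-26 mutant and 3.07 against 4.5 in the hcf-1 mutant. SET-26, a histone methylation reader carrying the same HA tag, had a peak on 0 of 42 tracts in wild type and on 0 in glp-1(e2141). Over H3, SET-26 had a peak on 0 with L4440 and 0 with glp-1 RNAi. In hcf-1 mutants the SET-26 counts were 3 with L4440, at folds of 1.27 to 1.45, and 0 with glp-1 RNAi. For the FLAG-tagged cofactor HCF-1 the counts were 11 in wild type and 1 in glp-1(e2141). Over H3 the HCF-1 counts were 1 with L4440 and 0 with glp-1 RNAi.

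**Figure D2:**
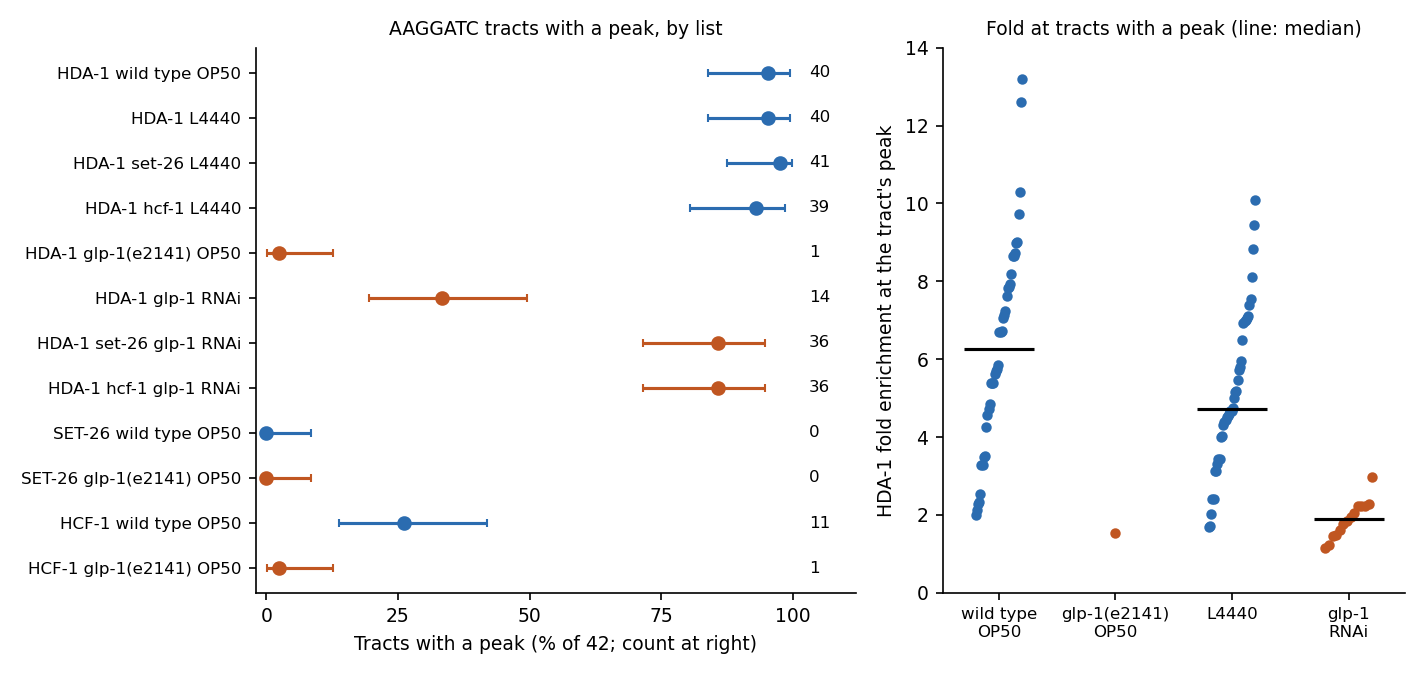
The left panel plots the share of the 42 AAGGATC tracts with a peak (x axis, %, count at right) in 12 lists, with exact 95% intervals, worms with a germline in blue and without in orange. The right panel plots the fold enrichment of the HDA-1 peak at each tract that has one (y axis) with the median as a line, and wild type reaches 13.2 while the single glp-1(e2141) point is at 1.53.

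All 42 tracts were under 90% unique, with a median of 13.6% unique words, so reads could match several of them. The alignment options that the methods give for CUT&RUN ask for no more than 1 reported place per read pair, and no filter on mapping quality is described, so such reads were kept at 1 place each, and the peaks cannot be assigned to single tracts with certainty. The pileups in wild type ranged from 206 to 23873 fragments. The local background that fold and pileup imply had a median of 130 at these peaks, against 96.0 over the wild-type list, so background was raised there as well. The tracts were spread over all 6 chromosomes, with 11 on chromosome I, 12 on II, 4 on III, 9 on IV, 5 on V and 1 on X, and 21 of the 42 lay within a protein-coding gene.

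A few genes counted as bound in wild type alone owed this to a tract. A peak was given to a gene when it touched the stretch reaching 2000 bp before and 500 bp after the gene's start, or to the nearest start where several qualified. The peak of age-1, which encodes the catalytic subunit of the phosphoinositide 3-kinase of insulin signalling, was a tract in an intron of the neighbouring gene mdt-8 at chrII:11527802-11528860, with a fold of 13.2. The peak of fbf-1, a PUF RNA-binding protein that maintains germline stem cells, had a fold of 10.3. Further tract peaks were given to avr-14, a glutamate-gated chloride channel subunit (7.23), csp-1, a caspase (6.73), math-46 (6.69), Y57G11C.8 (5.85) and the C-type lectin gene clec-163 (4.58). None of these genes had a peak in the mutant list. The gene vha-19, for a subunit of the vacuolar proton pump, counted as bound in both lists although its peaks did not match, since the wild-type peak was a tract with a fold of 7.07 at chrIV:3366691-3367203 and the mutant peak one of 3.23 at chrIV:3368611-3368862.

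A further group of wild-type-only peaks lay over the replication-dependent histone genes, which are present in many near-identical copies and are expressed in dividing cells. The histone genes counted here also include variant and linker genes such as hcp-3, his-72, htz-1 and hil-7. The wild-type peaks over these named genes were shared and 100% unique. Wild type alone bound 23 of 82 histone genes (28%), and 39 were bound in both lists, 3 in glp-1(e2141) alone and 17 in neither. Of all 19985 protein-coding genes, by comparison, 216 were bound in wild type alone, a background of 1.08%. The 37 wild-type peaks that overlapped a histone gene included 18 with no match, with folds from 1.5 to 3.53 and a median of 2.26. The peak between his-67 and his-68 at chrI:9988502-9989157 had the fold of 3.53, and those at his-15 and his-16 on chromosome II and at his-63 and his-64 on chromosome IV had 3.05 and 2.75. The 3 genes bound in glp-1(e2141) alone, his-38, his-40 and the linker histone gene his-24, all lie on the X chromosome, and the peak shared by the first pair had a fold of 2.42 and that of his-24 one of 1.98. Of the 18 wild-type-only peaks, 15 were under 90% unique, so the clusters share reads and the copies cannot be separated. L4440 peaks overlapped 14 of the 18 and glp-1 RNAi peaks 3. Wild-type HCF-1 peaks overlapped 16 and glp-1(e2141) HCF-1 peaks 1. Of the glp-1(e2141)-only peaks over histone genes, that at his-38 overlapped an L4440 peak and no glp-1 RNAi peak. The peak at his-24 overlapped both, and that at his-74 a glp-1 RNAi peak alone.

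Genes of small nuclear RNAs, the RNA parts of the spliceosome and likewise multicopy, showed a related pattern. Of 129 annotated snRNA genes, 24 (18.6%) were overlapped by a wild-type peak alone, 44 by a peak of both lists, 2 by a glp-1(e2141) peak alone and 59 by none. For protein-coding genes, counted by overlap with the gene body in the same way, the shares were 1.13% in wild type alone and 10.9% in glp-1(e2141) alone, and the tRNA genes, with 7 of 612 (1.14%) and 82 (13.4%), were near these. The snRNA copies are also similar to one another, and the part of shared reads was not tested.

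Germline genes made up a small part of the wild-type-only class. The genes of the germline lists bound in wild type alone were fbf-1, syp-4, syp-3, pos-1, cpg-1 and egg-5. The synaptonemal complex genes syp-4 and syp-3 had wild-type folds of 3.92 and 2.28, pos-1, for a maternal RNA-binding protein, 2.2, and cpg-1, for an eggshell proteoglycan, 1.61. The syp-4 peak lay in sequence under 90% unique, so its reads could match other places. The fold of 6.16 of egg-5, which acts at egg activation, belonged to a peak that the mutant also had, and the mutant peak was given to a neighbouring gene. By list, 2 of 47 meiosis genes, 3 of 40 oocyte genes, 1 of 31 P granule and stem cell genes, 0 of 79 sperm genes and 0 of 34 germline small RNA genes fell in this class, against the 1.08% over all genes. Genes of these lists were also bound in glp-1(e2141) alone, among them lst-1, a stem cell regulator (2.89), csr-1, an Argonaute (1.91), and him-17, which acts in meiotic recombination (1.77). Of the 8 germline markers used to check the label (glp-1, gld-1, fbf-1, fbf-2, glh-1, pgl-1, pgl-3 and deps-1), fbf-1 alone had a promoter peak in either list, and that peak was a tract. Of the oocyte markers, oma-2 was bound in both lists (2.09 in wild type and 3.47 in the mutant) and pos-1 in wild type alone. The oocyte markers oma-1 and rme-2 and the sperm markers spe-11, spe-9 and msp-3 had no promoter peak in either list. Among these markers, a promoter peak of HDA-1 was thus no consistent marker of germ cells, and the labels were not tested by it.

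Most wild-type-only peaks lay in unique sequence, where they were weaker, and the other libraries divided them. The median fold was 1.62 for the 291 of 509 that were at least 90% unique with fewer than 3 AAGGATC copies. It was 5.40 for the 47 with 3 or more copies and 1.76 for the other 171. The strongest in unique sequence, at chrV:18697637-18699747 upstream of the nuclear hormone receptor gene nhr-241, had a fold of 11.5. It overlapped L4440 and glp-1 RNAi peaks with folds of 9.18 and 1.55. A peak in an intron of btf-1, for a TATA-binding-protein-associated remodeller, had 6.65 in wild type and 3.92 with L4440, and one in an intron of the Argonaute gene alg-2 had 2.83 and 2.31. The glp-1 RNAi list had no peak at the last 2 sites. At chrIII:1496027-1496308 near ave-1, by contrast, wild-type, L4440 and glp-1 RNAi folds were 2.94, 2.41 and 2.22. Among the 291 wild-type-only peaks that were at least 90% unique and held fewer than 3 copies of AAGGATC, 34.4% overlapped an L4440 peak and 40.5% a glp-1 RNAi peak, with overlapping intervals of 28.9 to 40.1% and 34.9 to 46.4%. For these 291 peaks, the larger part of the class, the RNAi lists thus did not show the split between worms with and without a germline. Of the 47 peaks with 3 or more copies, 97.9% overlapped an L4440 peak and 29.8% a glp-1 RNAi peak.

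The glp-1(e2141)-only peaks were numerous, weak and in unique sequence. Of the 4893, 5.78% were under 90% unique, against 41.8% of the wild-type-only peaks. The peak with the highest −log10 q, at chrX:5651161-5652431 beside T22B7.7, had a fold of 3.63. The L4440 list had no peak there, and the glp-1 RNAi peak had a fold of 16.5. The highest fold was 4.0, at chrV:3668318-3668865 before the chemoreceptor gene str-113. The peak at chrX:2319368-2321078 was given to aakg-4, for a gamma subunit of AMP-activated protein kinase, and had 3.16. Other strong members lay before ZK1073.1 (3.86), rin-1, for a regulator of Rab signalling (3.65), haf-7, for an ABC transporter (3.01), and catp-7, for a cation-transporting ATPase (2.67), and in an intron of the homeobox gene psa-3 (2.96). At rin-1 and aakg-4 an L4440 peak was present with 1.49 and 1.72, and glp-1 RNAi peaks had 2.52 and 2.42. At haf-7, catp-7 and psa-3 there was no L4440 peak and the glp-1 RNAi folds were 2.02, 1.61 and 2.15. A peak at chrV:17126303-17126586 had the second highest −log10 q (119) with a fold of only 1.81 and 0% unique sequence.

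The classes differed in where they lay. The X chromosome, 17.7% of the genome, held 25.3% (24.1 to 26.5%) of glp-1(e2141)-only peaks, 22.5% (21.6 to 23.5%) of shared wild-type peaks and 51 of the 509 wild-type-only peaks (7.55 to 13%). The number of mutant peaks over wild-type peaks was 1.55 on X and 1.37 to 1.51 on the autosomes. On the autosomes, 49.8% of wild-type-only peaks lay in the outer 25% at either end of a chromosome, against 32.8% of shared wild-type peaks and 34.2% of glp-1(e2141)-only peaks. Summits fell in intergenic sequence within 500 bp upstream of a start for 28.3% of shared wild-type, 20.5% of glp-1(e2141)-only and 16.1% of wild-type-only peaks, against 7.41% of the genome. Coding exons, 24.6% of the genome, held 5.01%, 9.71% and 15.7% of these summits. Shared sites were thus the most promoter-proximal of the 3 classes, with a median distance to the nearest start of 938 bp against 1256 bp for glp-1(e2141)-only and 1307 bp for wild-type-only peaks.

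Words near the summits also differed between the classes. All words were searched on both strands within 100 bp of the summit, and the same was done in windows of that length at the start of 19973 genes. AAGGATC was found at 12% of wild-type-only, 0.793% of shared wild-type and 0.858% of glp-1(e2141)-only summits, and in 1.05% of the gene windows. TGATAA was found at 33.7% (32.4 to 35.0%) of glp-1(e2141)-only, 28.2% (27.2 to 29.2%) of shared wild-type and 18.7% (15.4 to 22.3%) of wild-type-only summits, and in 22.8% of gene windows. GAGAGAGA was found at 5.80%, 10.5% and 2.95% of these classes and in 2.73% of gene windows. In sequence that was at least 90% unique the TGATAA shares were 33.9%, 29.4% and 22.6%. Base composition moved with these counts, with a median GC of 36.3% in glp-1(e2141)-only, 39.8% in shared wild-type and 40.8% in wild-type-only peaks, and its part in them was not tested. The words are a description of the letters present, and the binding of the factors was not measured.

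Sites found in both lists mostly had the higher fold in the mutant. The median fold over the 7133 shared sites was 2.18 in wild type and 2.97 in glp-1(e2141), and 5850 sites (82.0%) were higher in the mutant. The log2 ratio of mutant to wild-type fold had a median of 0.36 and an SD over sites of 0.38. It was 0.46 in the quintile of sites with the lowest wild-type fold and 0.16 in the quintile with the highest, and 0.41 on X against 0.35 on the autosomes. The quintiles were sorted by wild-type fold, which is itself part of the ratio, so the fall across them is partly built in. Fold depends on the tag number and background of each pair of libraries, so the median ratio is not a measure of HDA-1 per site, and single sites are read against it. The order of the sites was similar, with a Spearman rho of 0.77 across sites, which share their libraries. Summits lay within 100 bp of each other at 86.5% of shared sites.

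A total of 246 shared sites had a log2 ratio over 1 and 10 a ratio below −1. The largest, 1.74, was at chrX:2316065-2316652 in an intron of aakg-4, with folds of 1.78 in wild type and 5.96 in the mutant, near the glp-1(e2141)-only peak given to that gene. High ratios were also found at unc-83, for a nuclear envelope anchor (2.1 and 6.0), mbk-2, for a DYRK kinase (1.35 and 3.83), cyp-25A2, for a cytochrome P450 (1.69 and 4.61), egl-10, for a regulator of G protein signalling (1.44 and 3.98), and acly-1, for ATP citrate lyase (1.47 and 3.96). These sites were in the lower part of the wild-type range and near the mutant median or above it. At the other end, after the tract in Y42A5A.5, stood a wide region at chrX:16929247-16935927 that was 50.7% unique (20.8 and 7.68), a site in Y18D10A.4 (19.9 and 7.99), one before skih-2, for an RNA helicase of the exosome (4.4 and 2.00), one in the SWI/SNF subunit gene let-526 (15.7 and 7.42) and one in an intron of the glutamate receptor gene glr-2 (4.08 and 1.97). Several of the lowest ratios thus belonged to sites that were among the strongest in both lists.

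**Figure D3:**
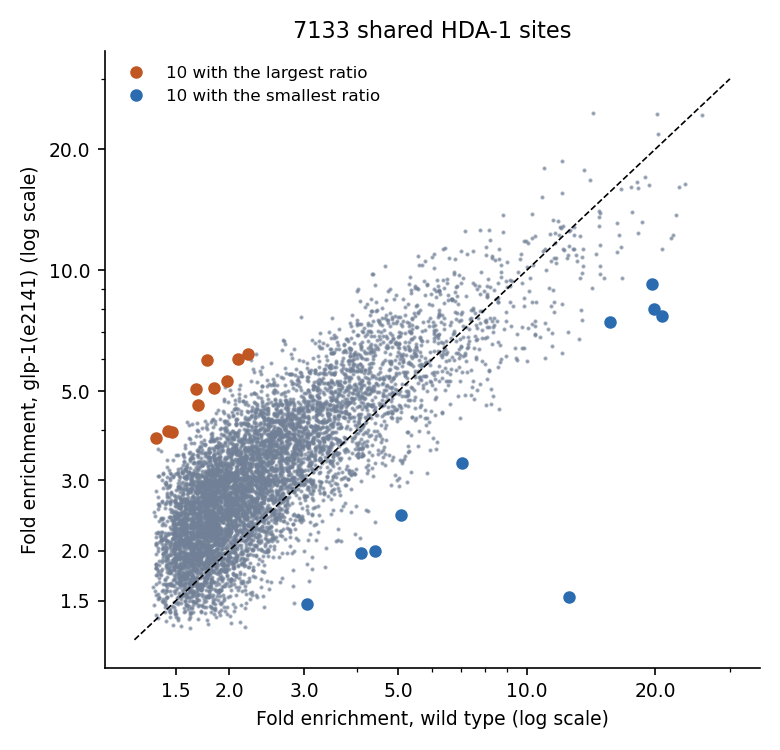
Each point is 1 of the 7133 regions with a peak in both lists, placed by its HDA-1 fold enrichment in wild type (x axis, log scale) and in glp-1(e2141) (y axis, log scale), with equality as a dashed line. The 10 largest and 10 smallest ratios are marked, and 82.0% of the points lie above the line.

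The strongest shared sites were strong in both lists but not equally so. Of the 10 with the highest wild-type fold, 8 had a lower fold in the mutant. They were picked by their wild-type fold, so a lower value in the other list is partly built in. Most of the 10 with the highest mutant fold were in turn lower in wild type. An intergenic site at chrX:4221526-4223581 had the highest wild-type fold, 25.8 against 24.3 in the mutant, and a site given to mai-2, for a mitochondrial ATPase inhibitor, had 20.2 and 24.5. The promoter of hlh-11, a basic helix-loop-helix regulator of fat metabolism, had 21.8 and 12.1. An intron of din-1, for a corepressor of the DAF-12 receptor, had the highest mutant fold, 24.7 against 14.3 in wild type. Wide wild-type peaks among the shared sites lay over the ribosomal RNA repeat at the right end of chromosome I (11172 bp), in the region of the X chromosome named above with a low ratio (6596 bp) and over the vitellogenin genes vit-2 (6396 bp) and vit-6 (6199 bp).

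At the level of genes, 5487 protein-coding genes (27.5%) had a promoter peak in wild type and 7442 (37.3%) in glp-1(e2141). Both lists bound 5271 genes (26.4% of 19985), glp-1(e2141) alone bound 2171 (10.9%), wild type alone the 216 given above, and 12315 were bound in neither. These counts are of lists that differ in length. With equal numbers of strongest peaks, 538 genes were bound in wild type alone and 1050 in glp-1(e2141) alone, and the 1.08% and 10.9% that serve as background rest on the full lists. For genes bound in both, the median fold of the strongest peak was 2.35 in wild type and 3.17 in glp-1(e2141), higher in the mutant for 81.9%. Of the 216 genes of wild type alone, the strongest peak held 3 or more copies of AAGGATC for 13, was otherwise under 90% unique for 74 and was in unique sequence for 129. For 31 of the 216 and for 77 of the 2171 the other list did have a peak in the window that was given to a neighbour. Genes on X made up 16.8% of those bound in glp-1(e2141) alone, 17.5% of those bound in both and 8.80% of those bound in wild type alone, against 13.7% of all.

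The gene lists are read against the shares over all genes. A list that HDA-1 binds often in general can exceed the 10.9% for that reason. Of the genes bound in the mutant, 2171 of 7442 over all genes were bound there alone. The counts were 8 of 38 for stress, 12 of 41 for cell cycle and 5 of 20 for histone methylation genes. Of 40 stress and heat shock genes, 38 were bound in the mutant and 30 in wild type. The 8 of 40 bound in the mutant alone, to be read against the 10.9% over all genes, included gst-4, for a glutathione S-transferase (3.21), hsp-25, for a small heat shock protein (2.78), hsf-1, for the heat shock transcription factor (2.54), and sod-2, for a mitochondrial superoxide dismutase (2.02). The strongest shared stress site, 1 region over the duplicated hsp-16.1 and hsp-16.48 genes that was 23.2% unique and counts for 4 genes of the list, had 18.1 in wild type and 16.6 in the mutant. Cell cycle and replication genes had 12 of 58 (20.7%) in the mutant alone, among them cyd-1, for cyclin D (2.3), cyb-3, for a cyclin B (2.26), and mcm-3, for a subunit of the replicative helicase (2.09), and 1 in wild type alone, mcm-7 (1.59), of the same helicase. Histone methylation genes had 5 of 25, including jmjd-3.1, for an H3K27 demethylase (2.12), and mes-2, for the H3K27 methyltransferase (1.80).

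Genes of energy metabolism, protein turnover and immunity were bound in the mutant alone at shares above 10.9% as well, and also more often in both lists. Oxidative phosphorylation, proteasome and immunity genes were bound in both at 53.1%, 66.7% and 30.3%, against 26.4% of all genes. Of those bound in the mutant, 9 of 35, 6 of 28 and 18 of 48 were bound there alone, against 2171 of 7442 over all genes. Oxidative phosphorylation genes had 9 of 49 (18.4%) in the mutant alone, such as atp-2, for the beta subunit of ATP synthase (2.3), and mev-1, of complex II (1.94). The proteasome list had 6 of 33 (18.2%), such as pas-3 (2.81) and rpn-13 (2.56), and innate immunity effectors 18 of 99 (18.2%). Of 81 cytosolic ribosomal protein genes, 64 were bound in both, 7 in the mutant alone (8.64%) and 0 in wild type alone. Chemoreceptor genes had 33 of 1302 (2.53%) in the mutant alone and neuropeptide and insulin genes 4 of 140 (2.86%). These shares were under 10.9%, but these genes were also bound less often in general, with 41 of 1302 and 21 of 140 bound in both. Of those bound in the mutant, 33 of 74 chemoreceptor and 4 of 25 neuropeptide and insulin genes were bound there alone. By this measure the chemoreceptor genes lay above the 2171 of 7442 over all genes, and the neuropeptide and insulin genes below it. The lists were described by these counts alone, and no list was tested against the others.

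**Figure D4:**
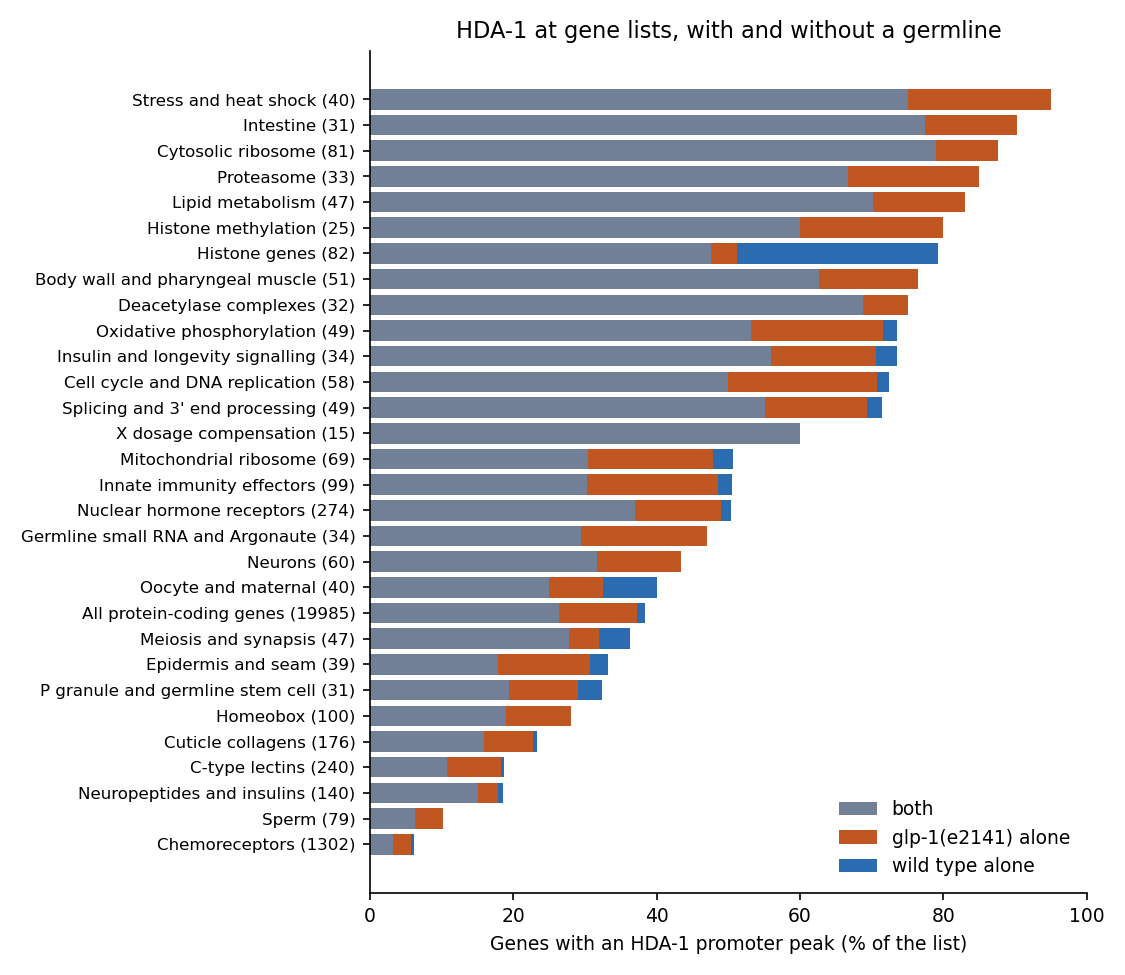
Bars give, for each gene list (size in parentheses) and for all protein-coding genes, the share of genes with an HDA-1 promoter peak in both lists (grey), in glp-1(e2141) alone (orange) and in wild type alone (blue), as % of the list. The histone genes show the widest blue segment, 28%.

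Genes of the deacetylase's own complexes were largely bound with and without a germline. Of 32, 22 were bound in both, 2 in the mutant alone and 0 in wild type alone, to be read against 26.4%, 10.9% and 1.08% of all genes. The mutant fold was higher for 20 of the 22, and over all genes bound in both for 81.9%. The highest folds were those of mep-1 (12 in wild type and 12.7 in the mutant), lin-40 (9.88 and 11.8) and lin-13, for a zinc finger partner of the heterochromatin protein HPL-2 (10.4 and 6.94). The gene hda-1 itself had a weak promoter peak in both, with 1.67 and 2.16. Those bound in the mutant alone were arid-1 (2.61), for a DNA-binding partner of the SIN3 complex, and mbd-2 (2.11), for a methyl-CpG-binding-domain protein of NuRD. In the list of insulin and longevity genes, daf-16, for the FOXO factor at the end of insulin signalling, had 3.99 and 7.51, and lgg-1, of autophagy, had 9.65 and 10.7. Genes of this list bound in the mutant alone included aak-2, the catalytic subunit of AMP-activated protein kinase (3.74), daf-36, for an oxygenase of steroid hormone synthesis (2.00), and sir-2.1, for a sirtuin deacetylase (1.96). The peak given to aak-2 also overlapped a wild-type peak, which did not reach the window of the gene.

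Of the 16 somatic markers, 9 were bound in both lists, 1 in the mutant alone and 6 in neither. The intestinal GATA factor gene elt-2 had 2.68 in wild type and 4.64 in the mutant and the yolk protein gene vit-2 5.94 and 3.57. The muscle genes unc-54 (2.22 and 4.09), unc-15 (2.60 and 4.98) and myo-3 (1.89 and 3.12), for a myosin heavy chain, paramyosin and a further myosin, had the higher fold in the mutant. Of the neuronal markers, snb-1, for synaptobrevin (2.90 and 3.40), rgef-1 (2.43 and 3.00) and unc-13 (2.1 and 2.60) were bound in both, unc-104, for a kinesin, in the mutant alone (2.2) and rab-3 in neither. The epidermal markers dpy-7, elt-3, lin-26 and nhr-23 and the intestinal esterase gene ges-1 had no peak in either list. By whole list, 24 of 31 intestinal, 32 of 51 muscle, 19 of 60 neuronal and 7 of 39 epidermal genes were bound in both, against 26.4% of all genes. The intestinal and muscle shares lay above that background, the neuronal share near it and the epidermal share below it.

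The L4440 and glp-1 RNAi lists, which took no part in the classes, overlapped them unevenly. The glp-1(e2141)-only and the shared peaks were overlapped more by the glp-1 RNAi list, and the wild-type-only peaks more by the L4440 list. The 291 unique wild-type-only peaks described above, out of 509, did not show this order. Of the 4893 glp-1(e2141)-only peaks, 67.3% (66 to 68.6%) overlapped an HDA-1 peak of glp-1 RNAi worms and 20.5% (19.3 to 21.6%) one of L4440 worms. Among the 885 with a −log10 q of 20 or more the shares were 91.5% and 40.1%. The glp-1 RNAi list is the longer one, with 12044 peaks against 8253, and the part of its length in this difference was not tested. For the wild-type-only peaks the longer list had the lower share, with 34.2% (30.1 to 38.5%) overlapping a glp-1 RNAi peak and 45.2% (40.8 to 49.6%) an L4440 peak, and among the 102 with a −log10 q of 20 or more 29.4% and 92.2%. Of the shared wild-type peaks, 98.2% and 83.6% were overlapped. When the RNAi lists were set against each other in the same way as the main pair, 5.42% of L4440 peaks and 41.5% of glp-1 RNAi peaks had no match.

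**Figure D5:**
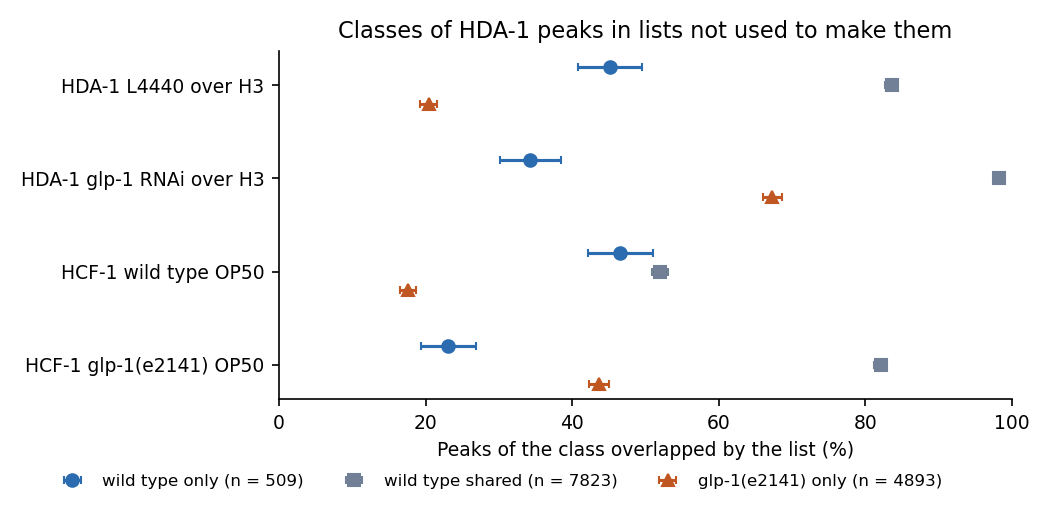
The share of each class of HDA-1 peaks (x axis, %) overlapped by HDA-1 peaks of L4440 and glp-1 RNAi worms and by HCF-1 peaks of wild type and glp-1(e2141) worms is plotted with exact 95% intervals, for wild-type-only (blue circles), shared wild-type (grey squares) and glp-1(e2141)-only peaks (orange triangles). The circles lie right of the triangles for L4440 and wild-type HCF-1 and left of them for glp-1 RNAi and glp-1(e2141) HCF-1.

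HCF-1, a conserved chromatin cofactor profiled through a FLAG tag with backgrounds of its own, gave the same order. Wild-type HCF-1 peaks overlapped 46.6% of wild-type-only HDA-1 peaks and 17.6% of glp-1(e2141)-only peaks, and HCF-1 peaks of glp-1(e2141) worms overlapped 23% and 43.7%. For the 291 unique wild-type-only peaks the shares were closer, at 39.2% with wild-type and 29.9% with glp-1(e2141) HCF-1. Their intervals overlapped (33.5 to 45.0% and 24.7 to 35.5%). For the 171 other peaks under 90% unique the shares were 64.3% and 15.8%. Of the shared wild-type peaks, 52.0% and 82.1% were overlapped by these HCF-1 lists. The higher share with glp-1(e2141) HCF-1 was thus not particular to the glp-1(e2141)-only class. The HDA-1 and SET-26 lists use HA backgrounds that are at least partly the same samples, so their overlap is not given. The split of the HDA-1 lists was less even than that of the other factors. Without a match in the other list were 6.11% of wild-type and 40.4% of mutant HDA-1 peaks, 32.8% and 23.6% of SET-26 peaks, and 36.3% and 45.9% of HCF-1 peaks. The number of mutant peaks over wild-type peaks was 1.45 for HDA-1, 1.13 for SET-26 and 1.14 for HCF-1, and these ratios carry the depth of 4 libraries each.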

How the data were processed

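Members and gene lists were chosen with earlier results of these data known. The submitters' processing notes name Trim Galore 0.6.5, Bowtie2 2.4.3 and MACS2 2.1.4, with alignment to WBcel235 (ce11). Per the file headers, the authors called narrow peaks on merged replicates at q = 0.01 with all duplicates kept and a fragment size of 200 bp. The deposited signal is the fragment pileup at a summit after scaling to the smaller library. The deposited fold is its ratio to the local background of the control, and the deposited −log10 q belongs to the authors' Poisson test. These values were used as deposited, and depth per sample is unknown since the headers give merged tags. Rows sharing chromosome, start and end were counted as 1 peak, with the values of its highest summit by −log10 q. A second deposited format of the 22 lists was not used here, nor were reads or coverage tracks, so the study's differential binding test could not be run.

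Genes are the 19985 protein-coding genes of Ensembl release 115, and histone and hsp-16 symbols repeated in it were kept as separate genes. Named peaks and genes were the 10 with the highest −log10 q and the 5 widest of each class, list members bound in wild type alone, up to 4 members of each list and class by −log10 q, the 10 largest and 10 smallest ratios among shared sites with a −log10 q of at least 20 in either list, and the cell type markers. The AAGGATC tracts, the peaks of unique sequence, T22B7.7, hda-1, avr-14, math-46, clec-163, vha-19 and din-1 were added after their values were seen. Python 3.11.15, pandas 2.3.3, numpy 2.4.6, scipy 1.17.1 and matplotlib 3.10.9 were used. The overlap and gene assignment were tested on simulated data. Overlap, threshold, window, sequence and control list were varied.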

Additional observations from a re-analysis of the deposited data

How the results depend on the processing

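No paired analysis was possible because every list was called on merged replicates, which also means that no replicate could be left out. The share of wild-type peaks without a match was 6.11%, and it became 6.84% when the summit had to lie inside the other peak, 4.99% with a −log10 q of at least 5 asked of the wild-type list only, 7.99% with a fold of at least 3 in both lists, 13.9% with the same number of strongest peaks from each list, 9.29% without peaks over 3000 bp, 4.96% without peaks under 90% unique, 5.42% with the lists called over H3 and 5.59% without peaks of 3 or more AAGGATC copies. The share of glp-1(e2141) peaks without a match was 40.4%, and under the same settings it became 42.3% by summit, 36.6% with the stricter mutant list, 51.3% by fold, 21.5% with equal numbers, 41.8% in unique sequence and 41.5% over H3. It exceeded the wild-type share under every setting. Equal numbers also changed the genes bound in wild type alone from 216 to 538 and in glp-1(e2141) alone from 2171 to 1050, since this setting drops the weakest mutant peaks. The share of wild-type-only peaks with an L4440 peak went from 45.2% to 35.1% in unique sequence, and that of glp-1(e2141)-only peaks with a glp-1 RNAi peak from 67.3% to 62.5% by summit. The other 32 values stayed within their interval, within 1 SD, or within 1.5 times for counts. The AAGGATC settings were chosen after seeing the data. Weak peaks are the least certain, and 85.2% of the weakest quintile of mutant peaks had no match and 0.206% of the strongest.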
